A study of Homo sapiens with 12 samples.

Results

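PAX3, PAX7, TFAP2A, TFAP2B, MSX1, MSX2, LMX1A and DMRT3 are 8 transcription factor genes of the dorsal neural tube and the neural plate border. They were taken by symbol from a table of 59050 genes, and they were chosen with their rise from stem cells to progenitors already known. That rise is therefore described here without a test. HUES8 (WT), a pluripotent line of human embryonic origin kept in mTeSR1 on Matrigel and here called ESC, was compared with the neural progenitor cells made from the same line, here called NPC. The NPC had spent 7 days in neural induction medium with 2.5 uM SB431542, which inhibits the receptors of activin, Nodal and TGF-β, and 0.05 uM LDN193189, which inhibits the receptors of BMP. SB431542 was left out of the medium on the last 2 days. Each state was measured in 3 libraries of total RNA depleted of rRNA and in 3 libraries of ribosome-bound RNA, 12 libraries in all. The labels do not say whether the libraries of a group came from separate cultures, so the p-values measure only the spread between these libraries.

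In the embryo the dorsal neural tube and the border between neural plate and epidermis are patterned by BMP and WNT ligands from the epidermis and, later, from the roof plate. PAX3 and PAX7 are paired-domain factors of dorsal progenitors and neural crest, TFAP2A and TFAP2B are AP-2 factors of the border, the neural crest and the ectoderm, and MSX1 and MSX2 are homeodomain repressors that respond to BMP. LMX1A is a LIM homeodomain factor of the roof plate, and DMRT3 is a DM-domain factor of dorsal forebrain progenitors and of spinal interneurons.

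The 8 genes lie on 6 chromosomes of GRCh38.p14, and the RefSeq promoter table held an entry for 8 of 8. The 250 bases before the annotated start were searched for 6 motifs on either strand in the 7 genes whose entry begins at the outermost start of the gene. The window listed for TFAP2B lies inside a longer transcript and was left out of the counts below. The shares of all windows given beside the counts were not limited to outermost starts. The CCAAT box, the letters CCAAT or their complement ATTGG, occurred in 4 of the 7 windows and in 32.0% of 35116 windows of the same length. TFAP2A, LMX1A and DMRT3 had no match. All 8 genes rose from ESC to NPC, and a link of the box to that rise was not tested. The TFAP2B window left out of the counts held the letters CCAAT 45 bases before its own start. Of the 7 windows, the 4 that hold the box are shown. They are chr2:222298999-222299248 on the minus strand (PAX3), chr1:18630596-18630845 on the plus strand (PAX7), chr4:4859415-4859664 on the plus strand (MSX1) and chr5:174724332-174724581 on the plus strand (MSX2), each printed 5′ to 3′ along the gene with the CCAAT box in capitals.
PAX3: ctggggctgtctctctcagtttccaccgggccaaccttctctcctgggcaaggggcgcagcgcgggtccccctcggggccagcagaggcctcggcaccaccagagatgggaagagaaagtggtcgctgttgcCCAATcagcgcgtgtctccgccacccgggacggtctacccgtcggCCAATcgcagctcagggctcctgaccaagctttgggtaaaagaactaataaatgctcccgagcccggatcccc
PAX7: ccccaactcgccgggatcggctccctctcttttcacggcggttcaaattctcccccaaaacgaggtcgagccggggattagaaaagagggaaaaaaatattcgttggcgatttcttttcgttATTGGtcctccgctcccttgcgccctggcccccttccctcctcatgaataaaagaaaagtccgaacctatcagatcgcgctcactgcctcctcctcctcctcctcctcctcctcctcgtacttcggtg
MSX1: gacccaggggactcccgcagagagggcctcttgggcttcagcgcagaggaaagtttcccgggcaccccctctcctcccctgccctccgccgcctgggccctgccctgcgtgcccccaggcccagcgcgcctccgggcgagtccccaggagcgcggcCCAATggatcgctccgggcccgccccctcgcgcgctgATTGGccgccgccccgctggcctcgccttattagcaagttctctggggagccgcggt
MSX2: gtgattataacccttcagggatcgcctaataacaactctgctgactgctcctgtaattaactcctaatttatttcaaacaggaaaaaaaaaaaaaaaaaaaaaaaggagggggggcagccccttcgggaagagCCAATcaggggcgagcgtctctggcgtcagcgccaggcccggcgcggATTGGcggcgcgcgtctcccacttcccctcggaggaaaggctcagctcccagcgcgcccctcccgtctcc
PAX3 held the letters at 118 and 73 bases before its start, MSX1 at 94 and 57, MSX2 at 117 and 70, and PAX7 at 128. In PAX3 both matches read CCAAT along the gene, whereas in MSX1 and in MSX2 the match nearer the start read ATTGG. The AP-2 motif GCCNNNGGC was found in the DMRT3 window alone of the 7 and in 19.8% of all windows. The homeodomain motif TAATTA was found in the MSX2 window (4.35% of all windows) and the TATA box TATAAA in the TFAP2A window (10.7%). The TCF/LEF motif ATCAAAG, present in 2.26% of all windows, and the SMAD motif GGCGCC, present in 16.4%, had no match in the 7 windows. The GC content of the windows ran from 54.8% (PAX7) to 75.2% (LMX1A), against a median of 58.0% over all windows. A match is a description of the letters and was not linked to binding here.

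Totals were 19529738 to 35117370 counts in the RNA libraries and 2422756 to 4451196 in the ribosome-bound libraries, so a low gene is measured far less precisely in ribosome-bound RNA. The states matched their labels: POU5F1 fell by 5.45 on the log2 scale in RNA (SE 0.30, adjusted p = 4.3e-06 by the quasi-likelihood test of edgeR, adjusted after Benjamini and Hochberg) and the neural factor PAX6 rose by 5.88 (SE 0.17, adjusted p = 2.89e-07, same edgeR test). Of 5 NPC markers 5 rose in RNA, and of 5 ESC markers 4 fell, LIN28A being the exception (−0.08, edgeR adjusted p = 0.554). RNA_ESC replicate 3 correlated with its partners at 0.980 and 0.976 across genes, where those correlated at 0.996, and RIBO_ESC replicate 2 at 0.927 and 0.940, where the others correlated at 0.976. Values below are CPM, the count scaled to the size of its library, with TMM factors taken over the 6 libraries of an assay. They are not corrected for gene length, so no level is compared between genes. In bulk libraries, fewer cells that express a gene and less RNA per cell cannot be told apart.

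PAX3, at chr2:222199887-222298998, was almost absent from ESC RNA and high in NPC. Its RNA stood at 0.255, 0.199 and 0.0511 CPM in the ESC libraries, which is 5, 5 and 1 counts, and at 91.1, 88.7 and 90.4 CPM in the NPC libraries. In ribosome-bound RNA the ESC libraries held 3.75, 0.861 and 0 CPM (12, 2 and 0 counts) and the NPC libraries 97.8, 118 and 123 CPM. The groups did not overlap in either assay, and the NPC libraries lay within a few percent of each other in RNA, with a coefficient of variation of 1.36%. The difference from ESC to NPC was 9.0 on the log2 scale in RNA (SE 0.26) and 6.18 in ribosome-bound RNA (SE 0.52). In RNA this was the 7th largest increase of 18631 genes.

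PAX7, the close relative of PAX3 at chr1:18630846-18748866, had 271 to 390 counts in each ESC RNA library, enough to be measured in both states. Its RNA stood at 17.6, 15.6 and 13.8 CPM in ESC replicates 1, 2 and 3 and at 112, 109 and 106 CPM in NPC. Ribosome-bound RNA held 4.06, 2.15 and 5.90 CPM in ESC (13, 5 and 22 counts) and 81.8, 85.9 and 85.1 CPM in NPC. No library of one state overlapped the other in either assay. The increase was 2.80 on the log2 scale in RNA (SE 0.12), the smallest among the 8 genes, and 4.30 in ribosome-bound RNA (SE 0.28). As ratios of counts, each with its exact binomial 95% interval, these were 6.97-fold (6.53 to 7.44) and 19.5-fold (14.2 to 27.5).

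TFAP2B, at chr6:50818355-50847619, was likewise nearly absent from ESC and high in NPC. Its RNA stood at 0.0511, 0.160 and 0.204 CPM in ESC (1, 4 and 4 counts) and at 63.9, 65.9 and 64.0 CPM in NPC. Ribosome-bound RNA held 1.25, 0 and 0 CPM in ESC (4, 0 and 0 counts) and 115, 119 and 131 CPM in NPC. The states did not overlap in either assay, and all ribosome-bound counts of ESC lay in replicate 1. The increase was 8.80 in RNA (SE 0.25) and 8.02 in ribosome-bound RNA (SE 0.48), both on the log2 scale. TFAP2A, at chr6:10396677-10419659, was low in ESC and higher in NPC. Its RNA stood at 0.306, 0.439 and 0.153 CPM in ESC (6, 11 and 3 counts) and at 11.5, 11.7 and 11.2 CPM in NPC. Ribosome-bound TFAP2A held 1, 0 and 0 counts in ESC and 9.62, 17.9 and 6.79 CPM in NPC. The NPC libraries agreed closely in RNA but ranged widely in ribosome-bound RNA, with a coefficient of variation of 50.3%, the widest of the 8 genes. The increase was 5.19 in RNA (SE 0.26) and 6.30 in ribosome-bound RNA (SE 0.80).

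**Figure D1:**
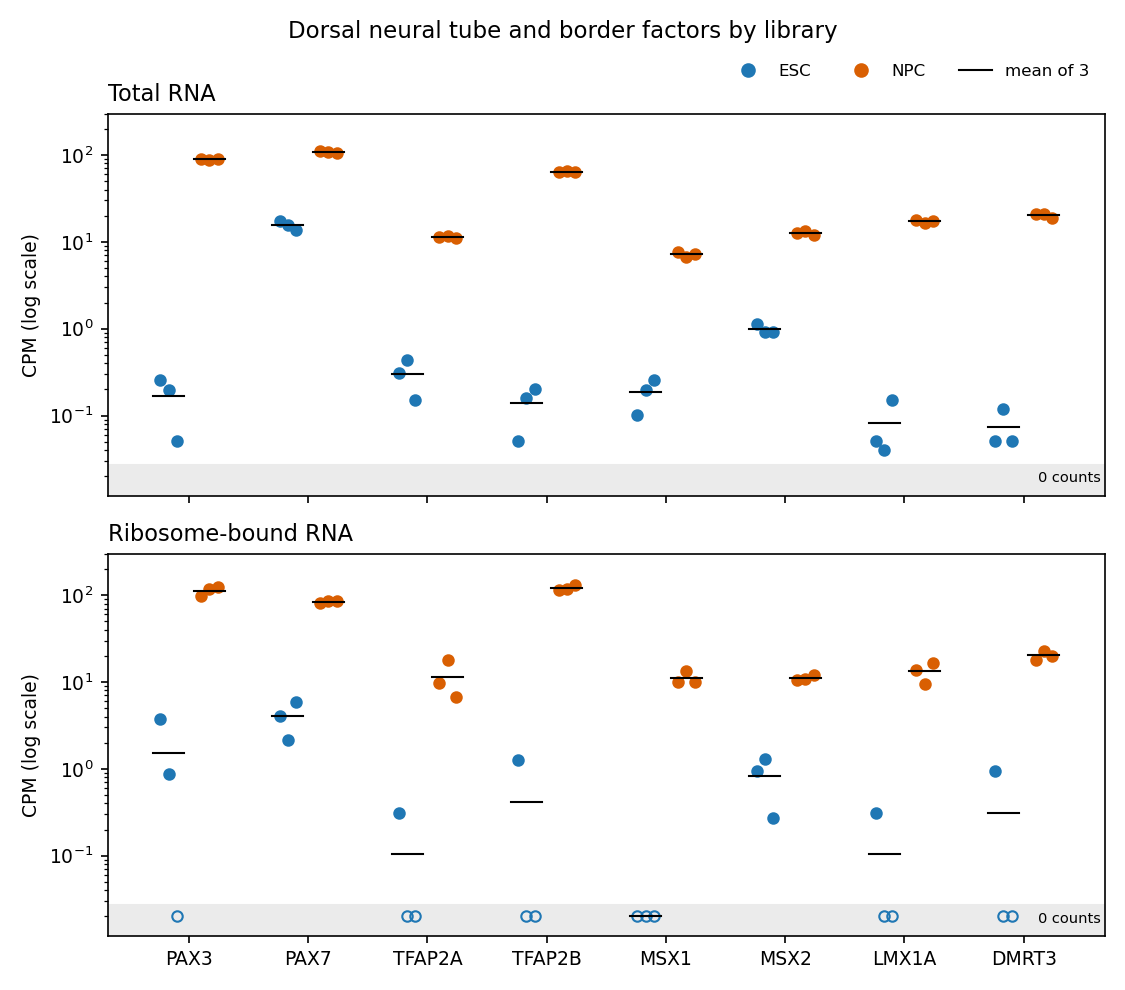
CPM (log axis) of the 8 genes in each library, total RNA above and ribosome-bound RNA below, with ESC in blue, NPC in orange, a line at the mean of 3 libraries and open circles for 0 counts. Every NPC library lies above every ESC library, and the ESC points of PAX7 in RNA lie at 13.8 to 17.6 CPM.

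MSX1 and MSX2 were both low in ESC and higher in NPC. MSX1, at chr4:4859665-4863936, stood at 0.102, 0.199 and 0.255 CPM in ESC RNA (2, 5 and 5 counts) and at 7.73, 6.62 and 7.27 CPM in NPC RNA. In ribosome-bound RNA it had 0 counts in all 3 ESC libraries, which allows up to 0.324 CPM (3 counts over the group), and 9.94, 13.4 and 9.96 CPM in NPC. It was at least 34.1-fold higher in NPC there, and 5.24 higher on the log2 scale in RNA (SE 0.26). MSX2, at chr5:174724582-174730896, was detected in every library. Its RNA stood at 1.12, 0.917 and 0.919 CPM in ESC (22, 23 and 18 counts) and at 12.7, 13.5 and 12.1 CPM in NPC. Ribosome-bound MSX2 held 0.937, 1.29 and 0.268 CPM in ESC (3, 3 and 1 counts) and 10.6, 10.9 and 12 CPM in NPC. Its increase was alike in the assays, 3.69 in RNA (SE 0.17) and 3.80 in ribosome-bound RNA (SE 0.47), on the log2 scale. The processed pseudogene MSX2P1 had 0 counts in every library, so no reads were assigned to it.

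LMX1A, at chr1:165201867-165356715, held 1, 1 and 3 counts in ESC RNA and 18.1, 16.3 and 17.4 CPM in NPC RNA. Its ribosome-bound RNA held 1, 0 and 0 counts in ESC and 13.8, 9.48 and 16.5 CPM in NPC. DMRT3, at chr9:976655-991732, held 1, 3 and 1 counts in ESC RNA and 21.2, 21.0 and 18.8 CPM in NPC RNA. Its ribosome-bound RNA held 3, 0 and 0 counts in ESC and 18, 22.9 and 19.7 CPM in NPC. Both genes were near absent in every ESC library and present in every NPC library. The increase of LMX1A was 7.71 in RNA (SE 0.30) and 6.53 in ribosome-bound RNA (SE 0.67), and that of DMRT3 was 7.95 (SE 0.26) and 5.81 (SE 0.57), on the log2 scale.

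The separation of the states, complete for 8 of 8 genes in each assay, is what the genes were chosen for. Every NPC library lay above every ESC library for 32.8% of the genes tested in RNA and for 35.0% in ribosome-bound RNA. The size of the increase split the genes. In RNA, PAX3, TFAP2B, DMRT3 and LMX1A ranked 7, 9, 21 and 26 among 18631 genes, MSX1 and TFAP2A ranked 119 and 122, and MSX2 and PAX7 ranked 272 and 495. The 4 highest all rest on 5 to 11 counts over the ESC libraries. As ratios of counts their exact 95% intervals were 294 to 1053 for PAX3, 243 to 1010 for TFAP2B, 111 to 803 for DMRT3 and 94.4 to 681 for LMX1A, so these do not separate one from the other. The interval of MSX2 (10.1 to 17.1) lay below those 4, and that of PAX7 (6.53 to 7.44) lay below that of MSX2. Reads that carry no molecular identifiers may be copies of a molecule, and these intervals and limits cover counting error only.

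**Figure D2:**
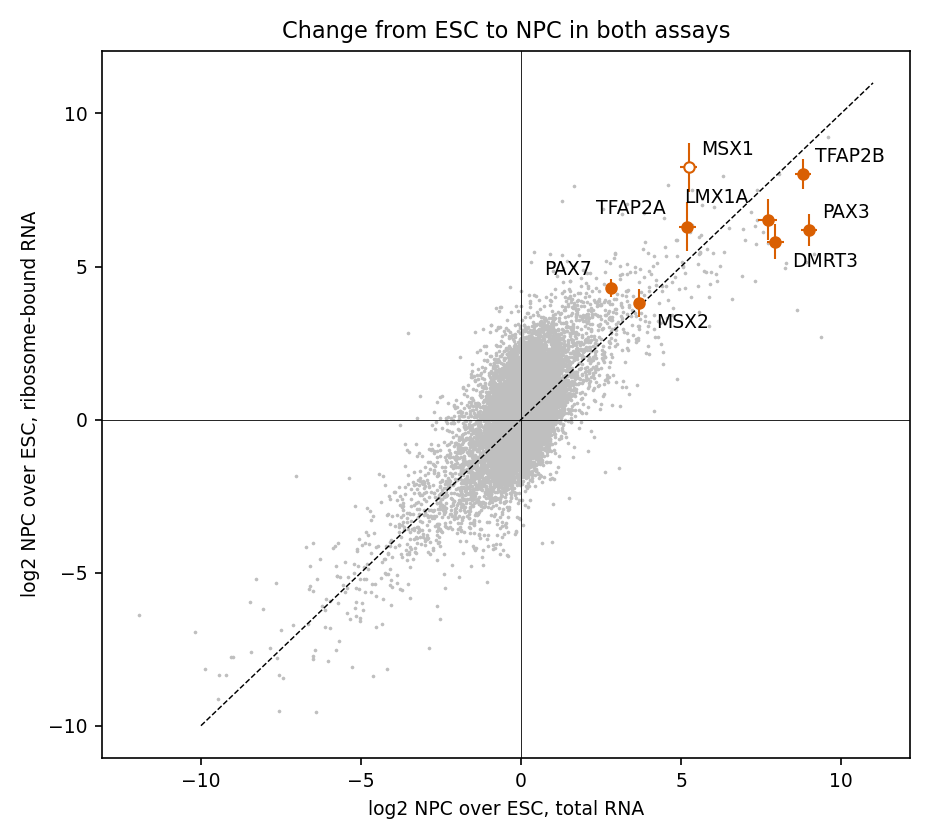
Log2 change from ESC to NPC in total RNA (x axis) and ribosome-bound RNA (y axis) for every gene tested in both assays (grey) and the 8 genes (orange, bars ± 1 SE), with the dashed line at equal change. PAX3 lies below the line at 9.0 and 6.18, PAX7 above it at 2.80 and 4.30, and the open point is MSX1, fitted against 0 ribosome-bound counts in ESC, whose height is no bound.

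In ribosome-bound RNA the ESC level of 5 of the genes rested on a single library. ESC replicate 1 held 21 of the 23 ribosome-bound counts of PAX3, TFAP2A, TFAP2B, LMX1A and DMRT3, which is 91.3%, although it held 33.7% of all ESC ribosome-bound counts. These genes were grouped after their values had been seen. PAX7 did not share this: 13 of its 40 counts, or 32.5%, were in replicate 1. Without that library the increase of PAX3 in ribosome-bound RNA was 8.25 on the log2 scale, fitted against 2 counts, and the other 4 genes had 0 counts in ESC, so no increase is read for them there. Why replicate 1 held more of them was not tested.

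Whether ribosome-bound RNA was high or low relative to total RNA within NPC is a comparison other than the rise the genes were chosen for. Its parts, the NPC levels in each assay, also entered that rise, so its p-values are not free of the choice. The same applies to the comparison within ESC below. The comparison within NPC was fitted on the 6 NPC libraries with their own scaling, so the fitted difference departs from the ratio of the CPM values above. It is relative to the average gene, and its median over 16777 genes was −0.16 on the log2 scale. By the same edgeR test, 4 of the 8 genes were higher in ribosome-bound RNA and the other 4 did not pass, against 34.3% of all genes higher and 41.5% lower. TFAP2B was higher by 1.24 on the log2 scale (SE 0.09, 95% interval 1.05 to 1.42, edgeR adjusted p = 2.58e-11). MSX1 was higher by 0.94 (SE 0.18, edgeR adjusted p = 9.5e-05) and PAX3 by 0.65 (SE 0.09, edgeR adjusted p = 1.84e-06). These 3 calls held in each of the 10 alternatives run. How ribosomes were isolated is not given, so the part of a gene that is covered may differ between the assays.

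DMRT3 was higher by 0.31 (SE 0.13, edgeR adjusted p = 0.0392), but this call ended in 7 of the 10 alternatives, whose adjusted p ran from 0.0323 to 0.383. Leaving out any 1 of the 3 RNA libraries gave 0.0625, 0.0774 and 0.116, and leaving out RIBO_NPC replicate 2 or 3 gave 0.275 and 0.0955. The other genes had intervals that included 0: −0.17 to 0.74 for TFAP2A, −0.20 to 0.47 for MSX2, −0.39 to 0.31 for LMX1A and −0.23 to 0.13 for PAX7. TFAP2A depended on single libraries, since it was 0.57 (edgeR adjusted p = 0.0195) without RIBO_NPC replicate 3 and −0.23 (0.328) without RIBO_NPC replicate 2. The intervals leave room for a difference of TFAP2A in either direction and confine PAX7 to within 0.23 of the average gene's ratio.

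In ESC only PAX7 and MSX2 passed the filter on low counts in the fit of the 6 ESC libraries. PAX7 was lower in ribosome-bound RNA, at −1.47 on the log2 scale (SE 0.36, 95% interval −2.25 to −0.70, edgeR adjusted p = 0.00289), where 34.5% of 15727 genes were lower and 27.1% higher, and the median of all genes was −0.20. It remained past the threshold in every alternative run, with values from −1.88 to −1.23. MSX2 gave 0.06 (95% interval −1.24 to 1.35, edgeR adjusted p = 0.947), too wide to place it.

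**Figure D3:**
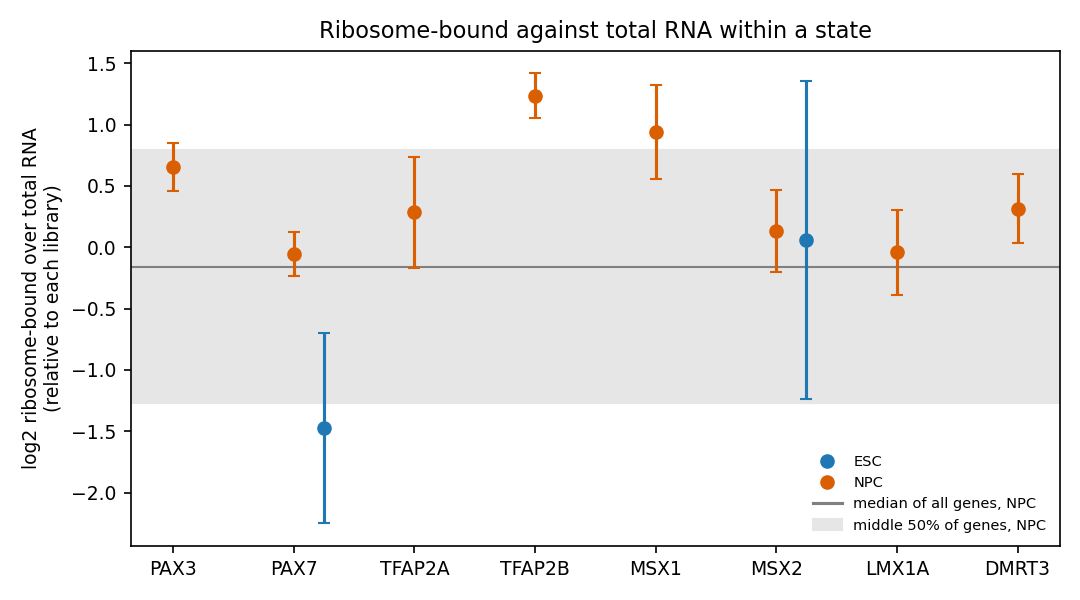
Log2 of ribosome-bound over total RNA within NPC (orange) and, for PAX7 and MSX2, within ESC (blue), with 95% intervals; the grey line and band are the median and the middle 50% of all genes in NPC. TFAP2B (1.24) and MSX1 (0.94) lie above the band in NPC, and PAX7 in ESC (−1.47) lies below it.

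The change of that ratio from ESC to NPC, the translational efficiency change, was fitted over all 12 libraries on 11866 genes and is given without a p, since both of its parts were known. PAX7 had 1.46 (SE 0.30, 95% interval 0.82 to 2.09) and MSX2 had 0.13 (SE 0.54, −1.02 to 1.27), with a median of −0.05 over all genes. PAX7 thus combined a moderate RNA increase with a larger increase in ribosome-bound RNA, and its value ran from 1.21 to 1.84 over the alternatives. PAX3 had −2.81 (SE 0.84, −4.60 to −1.03), but −0.66 without RIBO_ESC replicate 1, which left 2 ribosome-bound counts in ESC. DMRT3 had −2.0 (SE 1.10), TFAP2B −0.70 (SE 0.89), LMX1A −0.83 (SE 1.53) and TFAP2A 1.39 (SE 1.44). All ribosome-bound ESC counts of these 4 genes lay in that library, so without it they have no value that can be read. The same holds for MSX1 with every library in, since it had 0 ribosome-bound counts in ESC.

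Within families the mix of counts changed between the states. Shares of counts follow gene length as well as level, so they are compared between groups and not between genes. PAX3 made up 1.02% ± 0.573 (SD, n = 3) of the PAX3 and PAX7 counts in ESC RNA and 45.2% ± 0.679 in NPC RNA, and 57.1% ± 2.39 in ribosome-bound NPC. In ribosome-bound ESC the share was 48.0%, 28.6% and 0% of 25, 7 and 22 counts in replicates 1, 2 and 3, with exact (Clopper-Pearson) 95% intervals of 27.8% to 68.7%, 3.67% to 71.0% and 0 to 15.4%. TFAP2B went from 0.228% ± 0.121 of the TFAP2A, TFAP2B and TFAP2C counts in ESC RNA to 44.6% ± 0.638 in NPC RNA, while TFAP2C went from 99.3% ± 0.246 to 47.4% ± 0.713. In ribosome-bound NPC, TFAP2B held 58.7% ± 1.2 and TFAP2A 5.56% ± 2.83. The shares of PAX3 and of TFAP2B in NPC were thus larger in ribosome-bound RNA than in total RNA in every library. Whether the assays cover the same part of each gene is not known, so gene length may not cancel between them.

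MSX1 made up 16.0% ± 6.90 (SD, n = 3) of the MSX1 and MSX2 counts in ESC RNA, 36.1% ± 2.77 in NPC RNA and 49.7% ± 5.02 in ribosome-bound NPC. In ribosome-bound ESC it held 0 of 3, 0 of 3 and 0 of 1 counts, whose exact upper limits of 70.8%, 70.8% and 97.5% set no useful bound. LMX1A went from 0.384% ± 0.404 of the LMX1A and LMX1B counts in ESC RNA to 39.1% ± 0.870 in NPC RNA. These shifts came with unequal changes of the relatives. TFAP2C did not pass in RNA (0.22, SE 0.10, edgeR adjusted p = 0.0989), though without RNA_ESC replicate 3 its adjusted p was 0.000674, and it rose by 0.86 in ribosome-bound RNA (SE 0.24, edgeR adjusted p = 0.00911). LMX1B, a roof plate and hindbrain relative of LMX1A, did not pass in RNA (0.04, SE 0.20, edgeR adjusted p = 0.872) and rose by 2.27 in ribosome-bound RNA (SE 0.38, edgeR adjusted p = 0.000288).

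**Figure D4:**
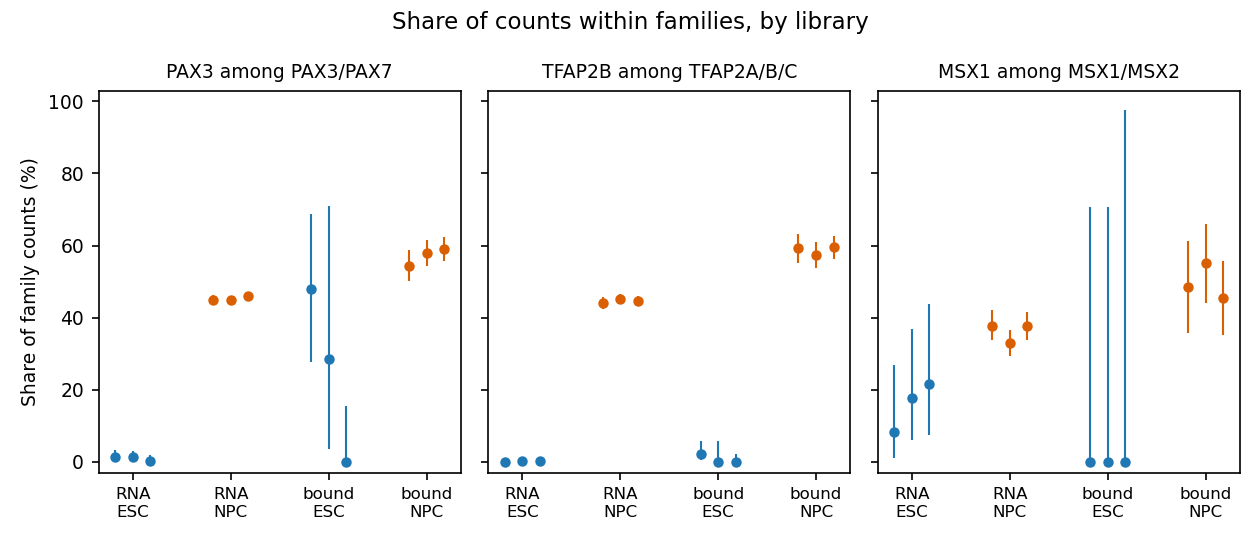
Share of the family's counts (%, linear axis from 0) taken by PAX3, TFAP2B and MSX1 in each library, with exact binomial 95% intervals, ESC in blue and NPC in orange. PAX3 goes from 1.02% in ESC RNA to 45.2% in NPC RNA and TFAP2B from 0.228% to 44.6%, while the wide bars in ribosome-bound ESC come from 1 to 25 counts for PAX3 and MSX1.

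Of the 17 other PAX, AP-2, LMX1 and DMRT genes listed, 10 were tested in RNA: 6 rose and 1 fell, where 26.4% of all genes rose and 26.2% fell. PAX6 and PAX2, an eye and midbrain factor, rose by 5.88 (SE 0.17) and 5.52 (SE 0.24). PAX5, a midbrain and hindbrain factor, fell by 2.25 (SE 0.13, from 30.2 to 6.36 CPM). DMRTA1, a forebrain progenitor gene related to DMRT3, rose by 2.77 (SE 0.14). Its close relative DMRTA2 went from 0 counts to 0.606 CPM in RNA, at least 12.5-fold. In ribosome-bound RNA DMRTA2 was too low to be tested, with 9 counts in ESC (0.981 CPM) and 8 in NPC (0.705 CPM). DMRT1, a regulator of the gonads, rose by 4.63 (SE 0.74), PAX8 rose by 0.77 (SE 0.19), and TFAP2E did not pass (−0.39, SE 0.18, edgeR adjusted p = 0.108). Without the filter on low counts DMRTB1 also fell (edgeR adjusted p = 0.0417), so that 2 fell. LMX1B and TFAP2C, the 2 relatives that did not pass in RNA besides TFAP2E, were present in ESC RNA at 26.1 and 58.9 CPM.

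The genes around the 8 loci were read from the RefSeq annotation. Beside PAX3, the gene EPHA4 at a gap of 625684 bases rose by 4.01 in RNA (SE 0.11, edgeR adjusted p = 1.94e-07) and SGPP2 at 124989 bases rose by 6.32 (SE 0.29, edgeR adjusted p = 1.7e-06). The lncRNA CCDC140, which overlaps PAX3, went from 0 counts in ESC to 2.55 CPM in NPC, at least 54.6-fold higher. Since the use of strand in counting is not given, reads of CCDC140 and PAX3 cannot be told apart where they overlap. Beside LMX1A, the retinoid receptor gene RXRG at 44206 bases rose by 4.06 (SE 0.49, edgeR adjusted p = 0.000264). Beside DMRT3, DMRT1 at 7564 bases rose by 4.63 (SE 0.74, edgeR adjusted p = 0.0012) but reached only 0.493 CPM. The neighbours of PAX7, TFAP2A and MSX1 that were tested did not rise in RNA: KLHDC7A fell by 0.55 (SE 0.13), GCNT2 fell by 0.96 (SE 0.15), STX18 fell by 0.59 (SE 0.12), and SLC35B3 did not pass (−0.34, SE 0.17, edgeR adjusted p = 0.129). PKHD1 beside TFAP2B rose by 1.29 (SE 0.17). TFAP2A-AS1, which overlaps TFAP2A, had 12 RNA counts in NPC and 0 in ESC.

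Other genes of dorsal patterning moved in both directions. Among 14 roof plate genes and dorsal signals, 12 were tested in RNA, of which 7 rose and 3 fell, with a median of 1.45 on the log2 scale against 0.03 over all genes. The ligand gene BMP5 rose by 7.38 (SE 0.45, from 0.0399 to 8.48 CPM) and RSPO3, a WNT agonist, by 7.16 (SE 0.27). BMP6 fell by 3.48 (SE 0.31) and WNT3 fell by 2.55 (SE 0.15). In ribosome-bound RNA 7 were tested, of which 4 rose and 1 fell, where 31.6% of all genes rose and 30.3% fell.

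Of 15 dorsal and intermediate progenitor genes 7 were tested in RNA, and 6 rose and 1 fell, where 26.4% of all genes rose and 26.2% fell. The proneural gene NEUROG2 went from 0 counts to 1.05 CPM, at least 22.7-fold higher, and IRX5 rose by 3.12 (SE 0.48). OLIG3, a factor of the most dorsal spinal progenitors, fell by 4.79 (SE 0.19, from 30.7 to 1.09 CPM), and fell by 4.87 in ribosome-bound RNA (SE 0.31). Without RNA_ESC replicate 1 or any 1 of the NPC libraries, DBX2 also passed the filter and fell, so that 2 fell. Without the filter on low counts 5 fell, the others being ATOH1, PTF1A and GSX2, which held 11, 19 and 15 counts over the ESC RNA libraries. The list of 13 ventral neural tube genes had 5 tested members in RNA, of which PTCH1 rose by 0.43 (SE 0.11), GLI1 fell by 5.05 (SE 0.27) and OLIG2 fell by 1.25 (SE 0.21). The 1 of 5 that rose and the 2 of 5 that fell stand beside the same 26.4% and 26.2% of all genes. Without the filter, without RNA_ESC replicate 3 or without any 1 of the RNA_NPC libraries, FOXA2 and OLIG1, which those settings let past the filter, also fell, so that 4 fell.

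**Figure D5:**
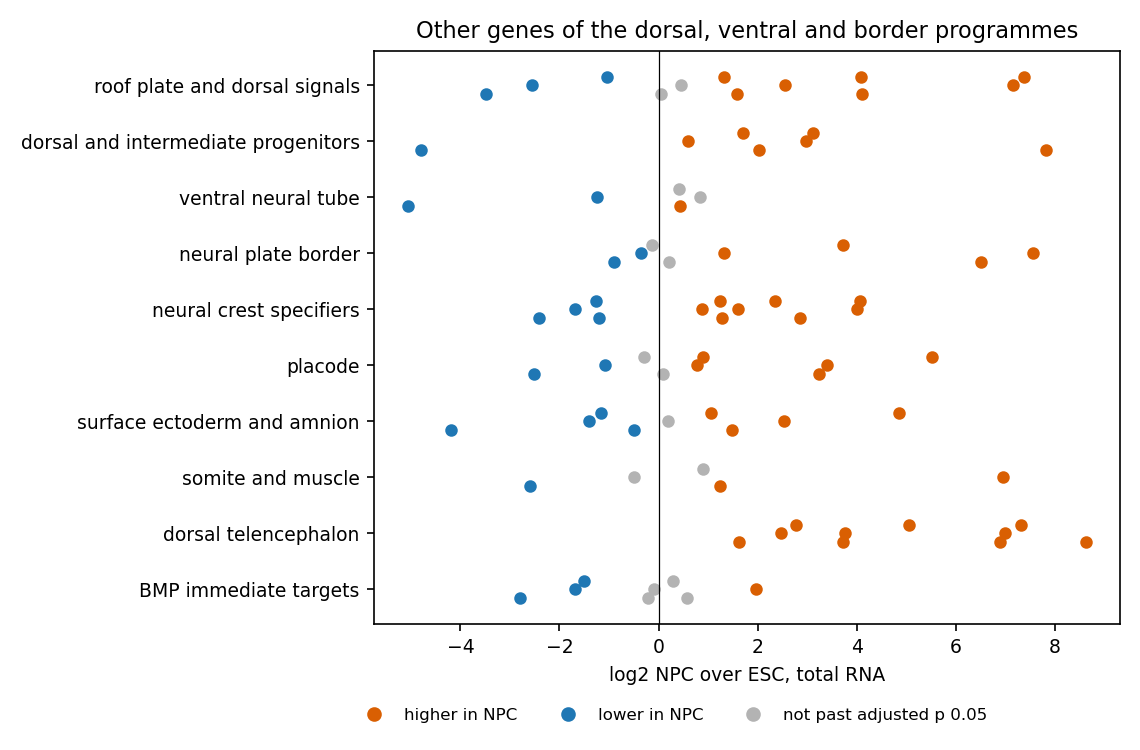
Log2 change from ESC to NPC in total RNA (x axis) of each tested gene in 10 lists that do not hold the 8 genes, orange for higher, blue for lower and grey for genes not past an adjusted p of 0.05. The dorsal telencephalon genes, 10 of 10, lie to the right of 0, and the BMP immediate targets lie on both sides.

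The neural plate border list had 8 of 9 genes tested in RNA, of which 4 rose and 2 fell, where 26.4% of all genes rose and 26.2% fell. DLX6 and DLX5, homeobox genes of the border and the ventral forebrain, rose by 7.56 (SE 0.46) and 6.50 (SE 0.42), and to 10.1 and 35.8 CPM in ribosome-bound NPC. GBX2 fell by 0.89 (SE 0.12). When any 1 of the RNA_NPC libraries was left out, 1 of the border genes fell in place of 2. Of 13 neural crest genes 12 were tested in RNA, of which 8 rose and 4 fell, beside the same shares of all genes, with a median of 1.26. RXRG and SNAI2 rose by 4.06 (SE 0.49) and 4.0 (SE 0.52), whereas ETS1 fell by 2.41 (SE 0.18) and MYB fell by 1.70 (SE 0.20). In ribosome-bound RNA 7 of 11 rose and 2 fell, where 31.6% of all genes rose and 30.3% fell, but without RIBO_ESC replicate 3 the number that rose was 4.

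Markers of other cell types that hold PAX3, PAX7 or AP-2 factors moved as follows. The 5 neural crest markers SOX10, FOXD3, SNAI2, TWIST1 and NGFR summed to 38.0 to 70.6 CPM in ESC RNA and to 112 to 128 CPM in NPC RNA, with 3 higher and 1 lower of the 4 tested. NGFR gave most of both sums, at a mean of 43.5 CPM in ESC and 102.9 CPM in NPC. SOX10 rose from 1.155 to 5.9 CPM and SNAI2 from 0.45 to 7.11 CPM. FOXD3 fell by 1.26, and TWIST1 was at 0.0947 CPM in ESC and 0.0948 CPM in NPC. The surface ectoderm and amnion markers KRT5, KRT14, TP63, GATA3 and GABRP summed to 6.42 to 8.12 CPM in ESC RNA and to 2.58 to 3.38 CPM in NPC RNA, with 1 higher and 1 lower of the 2 tested. GABRP fell by 4.18 (SE 0.23, from 7.08 to 0.386 CPM) and GATA3 rose by 2.54 (SE 0.27, from 0.424 to 2.54 CPM), while KRT14 had 0 counts in all RNA libraries and TP63 was at 0.152 CPM in NPC. The wider list of 13 such genes had 4 that rose and 4 that fell of 9 tested in RNA, where 26.4% of all genes rose and 26.2% fell. GRHL3, an ectoderm factor also found in the neural folds, rose by 4.85 (SE 0.13, from 4.78 to 139 CPM). The somite and muscle markers TBX6, MEOX1, MYF5 and MYOD1 summed to 0.306 to 0.877 CPM in ESC RNA and to 8.97 to 10.7 CPM in NPC RNA, of which MEOX1 gave 8.31 CPM. In RNA, MYF5 and MYOD1 went from 0 counts to 0.195 and 0.208 CPM, at least 4.23-fold and 4.46-fold higher. In ribosome-bound RNA MYF5 held 5 counts in ESC and 6 in NPC, and MYOD1 held 13 and 32. The wider list of 10 somite and muscle genes had 5 tested in RNA: MEOX1 rose by 6.96 (SE 0.29), PDGFRA rose by 1.23 (SE 0.25) and TBXT fell by 2.59 (from 0.583 to 0.0937 CPM). Without the filter on low counts MYF5 and MYOD1 were also called higher (edgeR adjusted p = 0.00769 and 0.00589), so that 4 rose in place of 2. What part these cell types had in the levels of the 8 genes was not tested.

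Genes of the dorsal telencephalon, where DMRT3 and its relatives act, rose together: 10 of the 12 were tested in RNA and 10 rose. Their median was 4.41, or 3.74 with the genes at 0 counts in ESC set at their bounds, against 0.03 over all genes. FEZF2, a factor of forebrain progenitors and projection neurons, went from 0 counts to 1.84 CPM, at least 39.2-fold higher. In ribosome-bound RNA 7 of 7 tested rose. The placode list had 9 of 11 tested in RNA, of which 5 rose and 2 fell, where 26.4% of all genes rose and 26.2% fell. EYA2, a transcriptional coactivator of placodes, fell by 1.07 (SE 0.16).

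The immediate targets of BMP signalling, the pathway to which MSX1 and MSX2 respond, moved in both directions. Of 8 such genes, all tested in RNA, 1 rose and 3 fell, where 26.4% of all genes rose and 26.2% fell: ID4 rose by 1.97 (SE 0.15), and SMAD7, ID1 and BAMBI fell. SMAD7 fell by 2.81 (SE 0.13) and ID1 fell by 1.69 (SE 0.32). With the replicate number as a block ID3 also rose (edgeR adjusted p = 0.04, against 0.198 without the block), which makes 2, as it did without the filter on low counts (0.0384), and without RNA_ESC replicate 3 both ID2 and ID3 rose, which makes 3. In ribosome-bound RNA 2 rose and 4 fell, and without RIBO_ESC replicate 3 the number that rose was 1. The ID genes differed there: ID1 fell from 273 to 51.2 CPM, while ID4 rose from 3.62 to 16.9 CPM. ID2 rose from 90.9 to 151 CPM, a call that ended without RIBO_ESC replicate 3 (edgeR adjusted p = 0.0603). ID3 did not pass, at 304 and 314 CPM. MSX2 went from 0.832 to 11.2 CPM, and what part BMP signalling had in this was not tested.

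For each of the 8, the nearest profiles were sought among 11063 genes, as the root mean square difference of log2(CPM + 0.5) over the 12 libraries after centring within each assay. IGFBP5 was nearest to PAX3 (0.261) and to TFAP2B (0.343), and it was followed by GREB1L for PAX3 (0.524) and by DACH1 for TFAP2B (0.438). ZNF521 was nearest to PAX7 (0.250), PLAU to MSX2 (0.221), WNT7B to TFAP2A (0.289), HES4 to LMX1A (0.259) and PAPPA to DMRT3 (0.205). Among the 8 themselves LMX1A and DMRT3 (0.343) and TFAP2A and MSX1 (0.347) were closest, and PAX3 was nearer to TFAP2B (0.534) than to its relative PAX7 (1.849). In 10 of 16 repeats with a pseudocount of 1 or 0.1 the set of 3 nearest genes changed, so the names depend on that choice.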

How the data were processed

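The authors deposited whole-number counts per gene, not normalized, for 59050 symbols in 12 libraries. Per the submitters' processing notes, cutadapt 1.18, Bowtie 1.2, STAR 2.7.1a and featureCounts 1.6.4 were used with builds hg38 and GRCh38. Their roles, the annotation, the use of strand, the treatment of reads with several matches, and the isolation of ribosomes were not given in the sources used here.

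Each state comparison (NPC against ESC, per assay), each assay comparison (ribosome-bound against total RNA, per state) and their interaction were fitted across all genes that passed filterByExpr, in R 4.3.3 with the quasi-likelihood F test of edgeR 4.0.16 and TMM factors; p-values were adjusted after Benjamini and Hochberg, and the threshold was 0.05. The standard error was the log2 difference divided by the square root of F. Where a group had 0 counts, the fold was bounded by setting that group to 3 counts in all. DESeq2 1.42.0, other size factors, no filter, a replicate block and leaving out each library were the alternatives. Fits were tested on simulated data.

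The 8 genes and the gene lists were chosen with earlier results of these data known. Named from each list were the 2 largest rises and falls in RNA past the threshold, without overlap of the states and with 1 CPM or more on average in the higher state, together with all tested relatives and the 3 nearest profiles. BAMBI, DBX2, ATOH1, PTF1A, GSX2, DMRTB1, FOXA2, OLIG1, ID2, ID3, SOX10, CDH6, TBXT and the cell type markers were named after their values were seen. Some genes that the rule picks are not reported here.

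Samples with the same number deviated together in the RNA state comparison (r = 0.185, 0.143 and 0.384). RNA_ESC replicate 2, however, deviated more closely with an NPC library of another number. There the numbers were taken to pair the samples, although the labels do not say what they mark. The main fits did not use the numbers, and the block was run as an alternative. Promoter windows, gene spans and neighbours came from RefSeq tables of GRCh38.p14. No reads, genome or protein sequences were used here.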

Additional observations from a re-analysis of the deposited data

How the results depend on the processing

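The counts of genes past the threshold stayed within 1.5 times of the reported ones under every alternative run, and no called value changed sign. With the replicate block the counts were 10076 (RNA, against 9791), 6765 (ribosome-bound, 7572), 12151 (assays within NPC, 12717), 9402 (assays within ESC, 9693) and 4789 (interaction, 4970). In RNA, where the numbers were taken to pair the samples, the block changed no call among the listed genes other than that of ID3, and elsewhere the numbers did not pair the samples (r from −0.253 to 0.107). There it ended the call of DMRT3 within NPC (edgeR adjusted p = 0.0953). In the ribosome-bound state comparison it ended those of SOX10 (edgeR adjusted p = 0.0839), CDH6 (0.0607) and LIN28A (0.0621). Leaving out 1 library gave 7834 to 13467 calls in RNA, 6661 to 8674 in ribosome-bound RNA and 10705 to 13123 for the assays within NPC. Leaving out together the RNA_ESC and RIBO_ESC libraries that stood apart, chosen after seeing the data, gave 7237 calls for the interaction and 11860 within ESC. Without the filter on low counts the median of all genes moved from 0.03 to 0.12 in RNA and from −0.16 to −0.88 for the assays within NPC, more genes being tested, and DMRT3 within NPC gave 0.17 (edgeR adjusted p = 0.383). Without that filter 8 roof plate genes rose in ribosome-bound RNA in place of 4. Levels per coding length were not run, since no table of lengths was used here. Ribosome-bound ESC depth, 2422756 to 3606539 counts, limits what can be said of all 8 genes. PAX7 had the most counts there, at 13, 5 and 22.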
